A study of Mus musculus with 16 samples.

Results

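The peroxiredoxins and the enzymes that work beside them against reactive oxygen were followed in the hippocampus of newborn and juvenile mice. The genes were *Prdx1* to *Prdx6*, the superoxide dismutases *Sod1* and *Sod2*, the glutathione peroxidase *Gpx4* and catalase, *Cat*. Every probe of the array annotated to these 10 genes was taken, which gave 16 of 25697 probes and 10 of 17871 genes. The set was selected on measured values: *Prdx2* had shown opposite genotype differences at the 2 ages. The genotype values are therefore a description without a test, and the test concerns the difference between the ages averaged over the genotypes, which that choice did not use.

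Total RNA of hippocampus was hybridised to Illumina MouseRef-8 v2 arrays, where the fluorescence of many beads with the same probe is averaged into a signal. The 16 arrays are 4 *Mef2c*-het and 4 wild-type (WT) samples at each of postnatal day 1 (P1) and postnatal day 30 (P30). *Mef2c*-het mice are heterozygous for a conventional allele of *Mef2c* that lacks exon 2, so that the deletion is present in every cell of the body, and the controls are WT littermates on the same C57BL/6J background. The labels call these mice KO, list no treatment, and give neither sex, litter nor chip, nor whether a sample is 1 animal, so p-values measure the spread between these samples.

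Peroxiredoxins reduce hydrogen peroxide with a reactive cysteine, and most of them are then returned to the reduced state by thioredoxin. *Prdx1* and *Prdx2* encode cytosolic forms, *Prdx3* the mitochondrial form, *Prdx4* the form of the endoplasmic reticulum, *Prdx5* a form found in mitochondria, peroxisomes and cytosol, and *Prdx6* a form that uses glutathione instead of thioredoxin. The superoxide dismutases convert superoxide to hydrogen peroxide, in the cytosol (*Sod1*) or the mitochondrial matrix (*Sod2*), while *Gpx4* reduces lipid peroxides in membranes and catalase breaks down hydrogen peroxide in peroxisomes. PRDX2 is known as a mainly neuronal form in brain and is also among the abundant proteins of red blood cells.

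Between 12638 and 14150 probes per array had a detection p under 0.05, and the median bead number per probe was 36 to 39. Within each age the arrays were divided by their correlation over all probes into 2 clusters, a number that was fixed and not found. The smaller one had the higher background, with a 5th percentile of the intensity of 140 to 161 against 106 to 131 on the other 11 arrays. It held replicate 8 of WT and of *Mef2c*-het at P1, and replicates 6 and 7 of WT and replicate 7 of *Mef2c*-het at P30. Of 10 markers of hippocampal neurons 9 were tested, among them *Prox1*, *Wfs1* and *Neurod2*, detected on all 16 arrays, while *Neurod6* was detected on 7 arrays at P1 and 0 at P30 and *Snap25* on none. The brightest probe of *Mef2c* had a log2 fold change, *Mef2c*-het over WT, of -0.01 (SE 0.12) at P1 and -0.24 (SE 0.19) at P30, with overlapping groups and replicate 7 of *Mef2c*-het, at 9.87, above the highest WT array at P30, at 9.75. The other tested *Mef2c* probe gave 0.07 (SE 0.12) at P1 and -0.29 (SE 0.17) at P30, also with overlapping groups. The remaining *Mef2c* probe did not pass the filter at either age. The sources used here do not give where these probes lie in the transcript, so their values do not check the deletion.

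Between P1 and P30 the 10 genes went in both directions. *Prdx4* was 2.54-fold lower at P30 and *Prdx2* 1.83-fold lower, and *Prdx1*, *Sod1* and *Cat* fell by less. *Sod2*, *Gpx4*, *Prdx5* and *Prdx3* were 1.17-fold to 1.38-fold higher at P30, while *Prdx6* lay close to the background of the array. *Prdx6* passed the filter through its P30 arrays, detected on 7 of 8 there and on 1 of 8 at P1. Such a filter favours a difference, so this gene is left out of the count. Counted by the brightest tested probe of each gene, the 9 other genes were all called, where 70.4% of all genes were: 4 genes were higher and 5 lower at an adjusted p under 0.05 (limma with Benjamini-Hochberg adjustment over 14777 probes, 8 arrays per age), where 32.6% and 37.7% of the 10803 genes tested were. The shares of all genes still hold the genes that, like *Prdx6*, passed the filter through 1 age. With the array clusters as a block, and likewise on the 11 arrays of the larger clusters alone, 3 of the 9 were higher and 5 lower. *Prdx3* was no longer called in either, where 71.2% and 71.1% of all genes were called. In bulk RNA, fewer cells of a type and less RNA per cell cannot be told apart. The median log2 fold change of the 9 genes was -0.21, or -0.04 with *Prdx6*, and that of all genes tested -0.03. In *Prdx2*, *Prdx4* and *Sod2* the 8 arrays of P1 did not overlap with the 8 of P30, as in 44.8% of all genes.

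**Figure D1:**
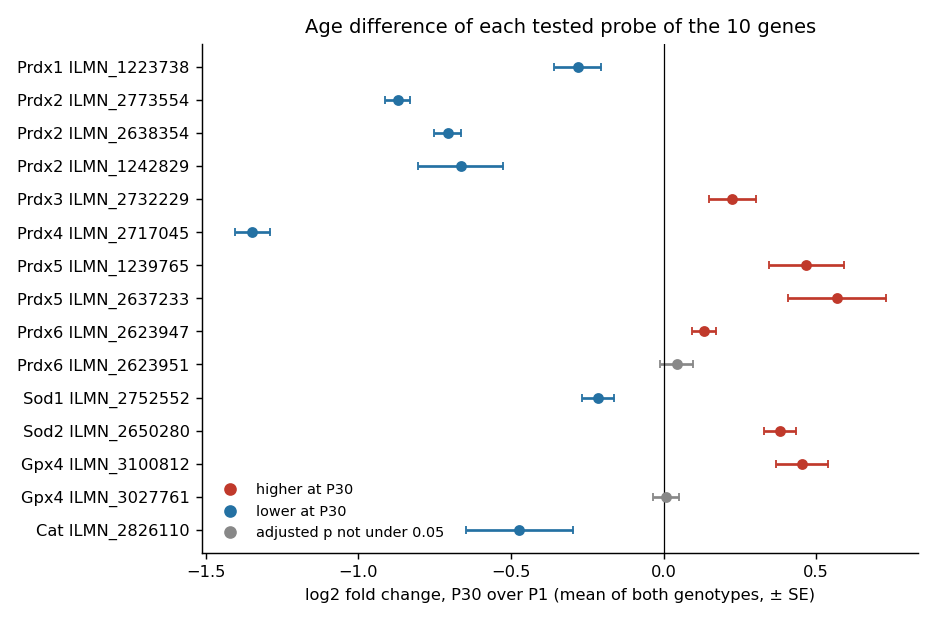
Log2 fold change of P30 over P1, averaged over both genotypes, with its standard error, for the 15 tested probes of the 10 genes. The 3 probes of Prdx2 and the probe of Prdx4 lie between -1.35 and -0.66, the probes of Prdx3, Prdx5 and Sod2 lie above 0, and 2 probes in grey, 1 of Prdx6 and 1 of Gpx4, did not pass the test.

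To be tested, a probe had to be detected (p under 0.05) on 4 or more of the 16 arrays, which 15 of the member probes were. The remaining probe, 1 of the 2 of *Prdx1* (ILMN_2989706), was detected on 2 arrays and was not tested. Levels below are log2 signals after quantile normalization over all 16 arrays unless another set is named, and a level can be compared between arrays for the same probe only.

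*Prdx2*, the cytosolic peroxiredoxin with 3 probes on the array, was lower at P30 with each of them. With the brightest probe (ILMN_2773554) the WT arrays of P1 stood at 14.24, 14.30, 14.22 and 14.34 and the *Mef2c*-het arrays at 14.34, 14.23, 14.31 and 14.24. At P30 the WT arrays stood at 13.30, 13.39, 13.36 and 13.51 and the *Mef2c*-het arrays at 13.38, 13.47, 13.42 and 13.43. The lowest array of P1 was thus above the highest of P30 by more than the whole range of either age, and the genotypes overlapped, with the *Mef2c*-het arrays of P30 all within the range of WT. The mean was 14.28 ± 0.05 (SD, n = 8) at P1 and 13.40 ± 0.07 at P30, a log2 fold change of -0.87 (SE 0.04, adjusted p = 5.64e-12). The probe of middle brightness (ILMN_2638354) gave -0.71 (SE 0.04, adjusted p = 3.18e-10), again without overlap of the ages. The dimmest (ILMN_1242829) gave -0.66 (SE 0.14, adjusted p = 0.000449), with 9.22 to 10.33 at P1 and 8.57 to 9.62 at P30, which overlap.

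*Prdx4*, the peroxiredoxin of the secretory pathway, showed the largest age difference of the 10 genes. Its probe stood at 12.40, 12.37, 12.22 and 12.41 on the WT arrays and 12.44, 12.13, 12.34 and 12.34 on the *Mef2c*-het arrays of P1. At P30 it stood at 11.11, 10.90, 10.96 and 10.92 on the WT arrays and 11.09, 10.86, 10.91 and 11.13 on the *Mef2c*-het arrays. The ages were separated by more than 1 unit on every array and the genotypes overlapped at both ages. The log2 fold change was -1.35 (SE 0.06, adjusted p = 2.14e-12), with -1.38 (SE 0.08) in WT and -1.31 (SE 0.08) in *Mef2c*-het.

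*Prdx1* and *Sod1*, the other cytosolic enzymes, fell less between the ages. *Prdx1* went from 13.30 ± 0.11 (SD, n = 8) to 13.02 ± 0.18, a log2 fold change of -0.28 (SE 0.08, adjusted p = 0.00351), and *Sod1* from 13.28 ± 0.07 to 13.07 ± 0.13, a change of -0.21 (SE 0.05, adjusted p = 0.00194). In both the ages overlapped. With each array scaled to a common median instead, the adjusted p of *Prdx1* was 0.0798.

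*Sod2*, which removes superoxide in mitochondria, was the member that rose without overlap of the ages. The P1 arrays read 11.94, 11.82, 11.85 and 11.78 in WT and 11.82, 11.78, 11.82 and 11.84 in *Mef2c*-het. The P30 arrays read 12.16, 12.20, 12.05 and 12.17 in WT and 12.45, 12.13, 12.40 and 12.13 in *Mef2c*-het. Even the lowest array of P30 lay above the highest of P1, and the 2 highest arrays of all were *Mef2c*-het arrays of P30. The log2 fold change was 0.38 (SE 0.05, adjusted p = 5.70e-06).

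*Prdx3* and *Prdx5*, the peroxiredoxins that serve mitochondria, were also higher at P30, with overlap of the ages. *Prdx3* rose by 0.23 on the log2 scale (SE 0.08, adjusted p = 0.0158). Its adjusted p was 0.0778 with the array clusters as a block, 0.0852 on the 11 arrays of the larger clusters and 0.130 with scaling to a common median. The brighter probe of *Prdx5* rose by 0.47 (SE 0.12, adjusted p = 0.00286), and the dimmer by 0.57 (SE 0.16, adjusted p = 0.00471, and 0.0687 with scaling to a common median). Both *Prdx5* probes had lower values on every array of the smaller clusters than on any array of the larger cluster of the same age. At P30 the brighter probe read 12.18 to 12.57 on the 3 arrays of the smaller cluster and 12.88 to 13.09 on the 5 others. With the clusters as a block its log2 fold change between the ages was 0.60 (SE 0.08, adjusted p = 4.36e-06).

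*Gpx4*, the selenoenzyme that acts on lipid peroxides, differed between its probes. The brighter probe (ILMN_3100812) rose from 11.15 ± 0.20 (SD, n = 8) to 11.60 ± 0.15, a log2 fold change of 0.45 (SE 0.09, adjusted p = 0.000159). The dimmer (ILMN_3027761), detected on all 16 arrays but with no array above 7.67, gave 0.01 (SE 0.04, adjusted p = 0.879). Both are annotated to the same transcript.

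*Prdx6* was near the detection limit with both of its probes. The brighter (ILMN_2623947) was detected on 1 of 8 arrays at P1 and 7 of 8 at P30, so it passed the filter through the age at which it was higher. Its log2 fold change, 0.13 (SE 0.04), is given without a test for that reason. No *Mef2c*-het array detected it at P1, and 3 of 4 did at P30. The *Mef2c*-het mean at P30 was 1.05-fold the lowest detected signal of the *Mef2c*-het arrays of P1. The other probe, detected on 4 of 16 arrays, gave 0.04 (SE 0.05, adjusted p = 0.490). Its *Mef2c*-het mean at P30 was 0.967-fold that lowest detected signal, so neither probe gives a usable size.

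*Cat*, the catalase of peroxisomes, was lower at P30 and varied most between samples of a group. At P1 its probe stood at 8.90, 9.29, 9.30 and 8.35 in WT and at 9.16, 9.03, 9.08 and 8.51 in *Mef2c*-het. At P30 it stood at 8.66, 8.67, 8.14 and 7.89 in WT and at 8.74, 9.06, 8.68 and 8.01 in *Mef2c*-het. The lowest values within each age, 8.35 and 8.51 at P1 and 7.89 to 8.14 at P30, are those of the 5 arrays of the smaller clusters. The log2 fold change was -0.47 (SE 0.18, adjusted p = 0.0253). It was no longer called after cyclic loess normalization (adjusted p = 0.0522) or when any of 5 arrays was left out: replicates 4 or 5 of WT at P1, replicate 1 of *Mef2c*-het at P1, or replicate 7 of either genotype at P30. With the clusters as a block it was -0.38 (SE 0.09, adjusted p = 0.000773).

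**Figure D2:**
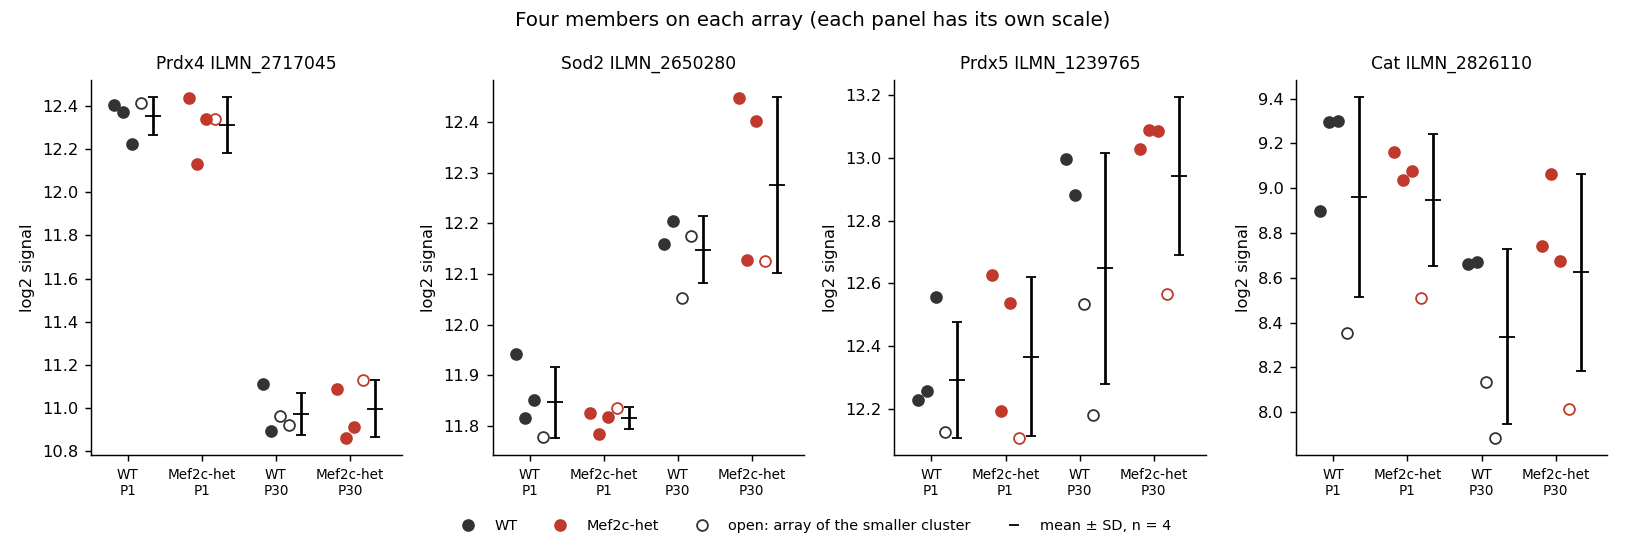
Log2 signal of Prdx4, Sod2, Prdx5 (brighter probe) and Cat on each of the 16 arrays, by genotype and age, with the mean and SD of each group beside its points. Open symbols are the 5 arrays of the smaller, higher-background clusters, which hold the lowest values of Cat (7.89 to 8.51) at each age and those of Prdx5 but not those of Prdx4.

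Cell type markers moved with age at the same time. All 10 oligodendrocyte markers and 8 of 9 astrocyte markers were higher at P30, where 32.6% of all genes were. All 5 tested markers of proliferating cells were lower, where 37.7% of all genes were. The median log2 fold changes were 4.50, 1.01 and -2.19. At P1 *Mog*, *Mobp* and *S100b* were detected on 0 of 8 arrays and *Olig2* on 3. At P30 *Top2a* was detected on 3 of 8, and *Ccnb1* and *Cdk1* on 1. Like *Prdx6*, these markers passed the filter through 1 age, which favours a difference. The summed signal of the proliferation markers was 3762 to 4755 over the P1 arrays and 878 to 995 over the P30 arrays, and that of the astrocyte markers 28089 to 33092 and 55189 to 60438. The part of cell composition in the values above was not tested. Of the markers of red blood cells, in which PRDX2 is abundant, 5 of 13 were tested: *Hba-a1* was lower at P30 (log2 fold change -0.33, SE 0.10, adjusted p = 0.00658), and *Hbb-b1*, *Alas2*, *Slc4a1* and *Klf1* were not called. The embryonic globin genes *Hbb-bh1* and *Hbb-y* were detected on none of the arrays. Summed red cell markers overlapped between the ages, with 11728 to 17206 at P1 and 9555 to 13998 at P30. Their part in the *Prdx2* values was not tested.

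By Pearson's r over the 16 arrays, the probes most like the brightest *Prdx2* probe were those of *Cdk1* (r = 0.995), *Banf1* (0.995), *Psmc3ip* (0.995), *H3f3a* (0.994) and *Pbk* (0.994). The arrays fall into 2 ages that these probes separate, with log2 fold changes between the ages from -2.95 for *Pbk* to -1.32 for *Banf1*, and r over all arrays is mostly set by that separation. After the mean of each group was taken off, r over the 16 arrays with the same 5 genes, which were picked for their likeness to the brightest *Prdx2* probe on these arrays, was 0.53 to 0.71 for that probe. It was -0.38 to -0.13 for the probe of middle brightness and -0.26 to 0.17 for the dimmest. The way these genes were picked favours the brightest probe, so the probes are not compared by these values. Between the *Prdx2* probes themselves, r inside the groups was -0.39 for the brightest with the middle probe. It was -0.19 for the brightest with the dimmest and 0.52 for the middle probe with the dimmest.

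The genotype difference was described next, beginning with *Prdx2*, whose levels follow after normalization over the 8 arrays of each age. With the dimmest probe (ILMN_1242829) the WT arrays of P1 stood at 9.64, 10.37, 10.05 and 9.40 and the *Mef2c*-het arrays at 9.31, 9.39, 9.56 and 9.27. At P30 the WT arrays stood at 8.87, 8.55, 8.53 and 8.72 and the *Mef2c*-het arrays at 9.21, 8.89, 9.57 and 8.66. All 4 *Mef2c*-het arrays were below the WT mean at P1, and 3 of 4 were above it at P30, and at both ages the groups overlapped. The WT mean at P1 was 9.86 ± 0.43 (SD, n = 4) and that of *Mef2c*-het 9.38 ± 0.13, a log2 fold change of -0.48 (SE 0.18) or 0.716-fold. At P30 the means were 8.67 ± 0.16 and 9.08 ± 0.40, a log2 fold change of 0.41 (SE 0.18) or 1.33-fold. The difference between the ages of these genotype effects was 0.90 (SE 0.28) in the fit of all 16 arrays. Leaving out replicate 4 of WT changed the value at P1 to -0.32, and leaving out replicate 6 of *Mef2c*-het changed that at P30 to 0.25.

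The other probes of *Prdx2*, annotated to the same transcript, had much smaller values. With the brightest, the WT arrays stood at 14.30, 14.38, 14.28 and 14.43 at P1 and the *Mef2c*-het arrays at 14.43, 14.29, 14.40 and 14.30. The same probe read 13.29, 13.37, 13.34 and 13.50 in WT at P30 and 13.36, 13.46, 13.40 and 13.42 in *Mef2c*-het. The genotypes were interleaved at both ages, with log2 fold changes of 0.01 (SE 0.07) at P1 and 0.03 (SE 0.06) at P30 and a difference between the ages of 0.03 (SE 0.08). The probe of middle brightness gave -0.02 (SE 0.06) and 0.09 (SE 0.07), with a difference of 0.11 (SE 0.09). Its signs were also opposite, with 3 of 4 *Mef2c*-het arrays below the WT mean at P1 and 3 of 4 above it at P30, and the value at P1 was below its error. The dimmest probe, with the largest values, was the one read least precisely. Its standard error over the beads was 4.99% to 8.88% of the signal across the arrays, against 2.43% to 5.13% for the brightest probe. Its pooled SD within groups, 0.31, was at the 94.6th percentile of the tested probes, where that of the brightest, 0.06, was at the 2.98th.

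**Figure D3:**
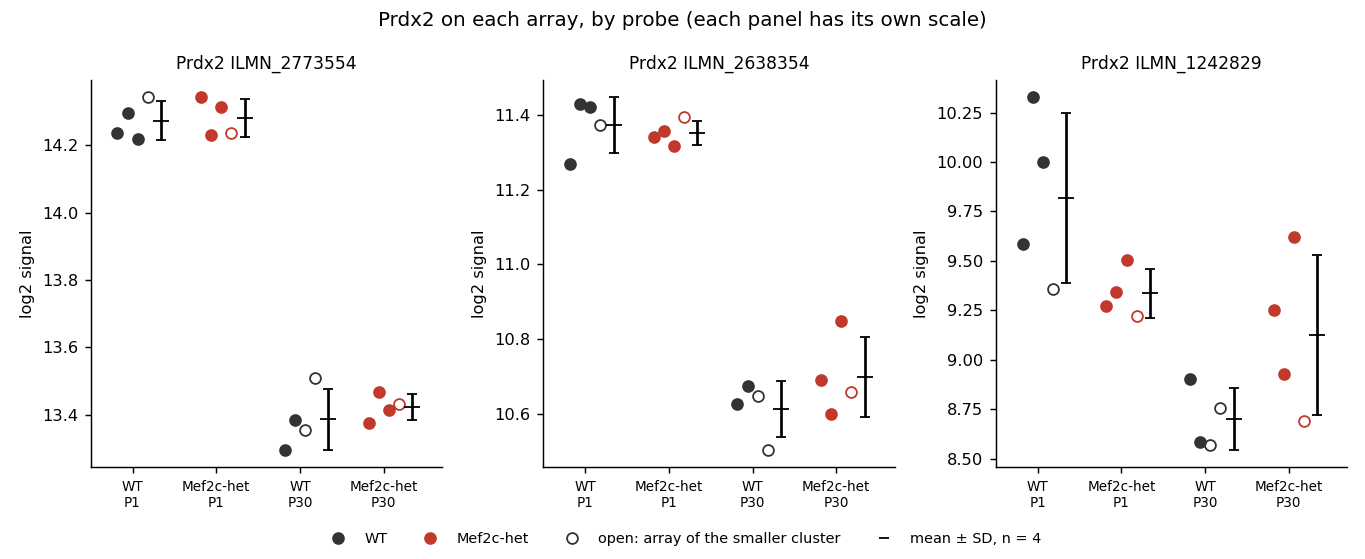
Log2 signal of the 3 Prdx2 probes on each array after normalization over all 16 arrays, by genotype and age, with the mean and SD of each group. With the 2 brighter probes the ages are apart and the genotypes interleave, and with ILMN_1242829 WT lies higher at P1 (up to 10.33) and Mef2c-het higher at P30 (up to 9.62), with overlap.

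Of the 5 tested red cell markers, only *Hbb-b1* had a positive r with the dimmest *Prdx2* probe inside the groups. After the mean of each group was taken off, r over the 16 arrays with that probe was 0.66 for *Hbb-b1*, -0.54 for *Hba-a1*, -0.48 for *Alas2*, -0.47 for *Slc4a1* and -0.12 for *Klf1*. Over the other member probes this r ran from -0.62 (brighter *Prdx6* probe) to 0.80 (brighter *Gpx4* probe). *Prdx1* and the dimmer *Prdx5* probe stood at 0.72, also above *Hbb-b1*. The highest *Hbb-b1* signals of WT at P1, 10.27 and 10.48, were those of replicates 4 and 5, and the highest of *Mef2c*-het at P30, 10.23, was that of replicate 6, the same arrays as for this *Prdx2* probe. *Hba-a1* showed no such order, with 13.66 and 13.53 among 13.53 to 13.77 in WT at P1 and, in replicate 6, the lowest signal of *Mef2c*-het at P30, 12.93. Summed over the 5 tested red cell markers, the signal of replicate 6 was the lowest of its group, at 9555. In *Mef2c*-het at P1 the highest *Hbb-b1* signal, 10.13, was that of replicate 1, and in WT at P30, 9.60, that of replicate 3. The dimmest *Prdx2* probe was highest there on other arrays, replicate 4 and replicate 2. *Hbb-b1* also had its lowest values within each group on arrays of the smaller clusters, between 8.29 and 8.80. The dimmest *Prdx2* probe read 8.57 to 8.75 on the smaller cluster of P30 and 8.59 to 9.62 on the larger. At P1 it read 9.22 to 9.36 and 9.27 to 10.33. Over all alternatives run, the clusters as a block among them, its genotype value lay between -0.64 and -0.32 at P1. At P30 it lay between 0.25 and 0.56. These values are a description, and the part of red cells in the *Prdx2* values was not tested.

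No tested probe of the 10 genes had genotype groups without overlap at either age, where 1.29% of the 13566 probes tested at P1 and 1.75% of the 13413 tested at P30 had. These counts hold the contrast that chose the set, so nothing is read from them. At P1, 13 of the 16 probes were tested and *Prdx6* had none. The brightest tested probes of the 9 genes ranged from -0.07 in *Gpx4* to 0.08 in *Sod1*, with an SE of 0.07 for *Sod1* and larger errors than values for the rest. Of the 9, 3 were above 0, with a median of -0.03, where 52.2% of all genes were above 0.

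At P30, 9 of the 10 genes had a positive log2 fold change, *Mef2c*-het over WT, with a median of 0.07, where 44.2% of all genes were positive and their median was -0.01. The share of all genes moved with the scaling, to 56.8% (median 0.01) with scaling to a common median and 52.5% with cyclic loess, with 9 of the 10 positive in both. The values furthest from 0 were 0.29 (SE 0.18) for the brighter *Prdx5* probe, 0.28 (SE 0.24) for *Cat*, 0.13 (SE 0.09) for *Sod2*, and 0.08 or less for the other genes. *Prdx6*, at -0.02 (SE 0.06), was the gene below 0. The smaller cluster held 2 WT arrays and 1 *Mef2c*-het array at P30, and with the clusters as a block the values became 0.15 (SE 0.08) for *Prdx5* and 0.10 (SE 0.09) for *Cat*, while *Prdx1* went from 0.04 to -0.03. The number of positive genes was 7 to 9 over the 17 alternative settings tried at P30, and 1 to 6 of those tested at P1. At both ages the counts of positive genes include *Prdx2* and hold the contrast that chose the set, so nothing is read from them.

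**Figure D4:**
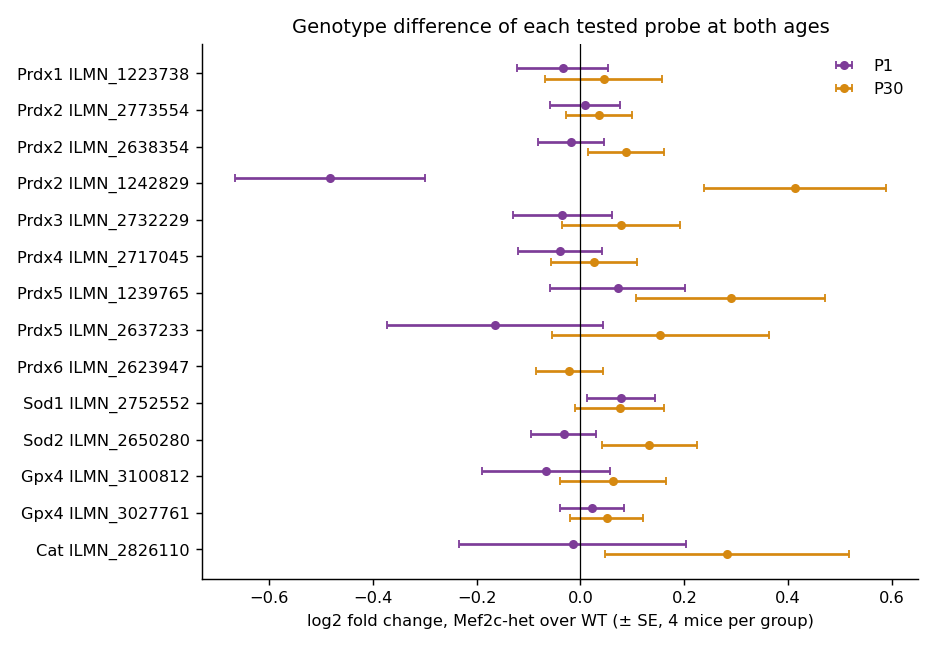
Log2 fold change of Mef2c-het over WT with its standard error at P1 and at P30, 4 arrays per group, for the probes tested at either age. The Prdx2 probe ILMN_1242829 lies at -0.48 at P1 and 0.41 at P30, the other Prdx2 probes lie between -0.02 and 0.09, and most values at P30 lie to the right of 0.

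Peroxiredoxins depend on enzymes that reduce and repair them, and these were given as lists of 92 genes, of which 90 were on the array and 78 were tested. With age 29 of the 78 were higher (37.2%), 25 lower (32.1%) and 24 not called, beside 32.6% higher and 37.7% lower of all genes, with a median log2 fold change of 0.00. *Srxn1*, which encodes sulfiredoxin, the enzyme that rescues over-oxidised peroxiredoxins, had the largest rise of the lists. Its brightest probe went from 8.37 to 9.05 over the P1 arrays to 10.59 to 10.89 over the P30 arrays, a log2 fold change of 1.99 (SE 0.08, adjusted p = 1.78e-12). Its other probes gave 1.74 (SE 0.05) and 0.84 (SE 0.05), each without overlap of the ages.

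In the thioredoxin list 4 genes were higher, 5 lower and 2 not called. The counts of all lists, unlike that of the members, keep genes that passed the filter through 1 age, such as *Txnrd1*. *Txn1*, the cytosolic thioredoxin, had a log2 fold change of -0.82 (SE 0.30, adjusted p = 0.0219) and a wide spread, from 7.59 to 9.98 over the arrays, with the lowest values of each group on arrays of the smaller clusters. *Txn2*, its mitochondrial counterpart, rose by 0.49 (SE 0.05, adjusted p = 5.17e-07) without overlap of the ages. *Txnrd1*, the cytosolic reductase, was detected on 6 of 8 arrays at P1 and 2 of 8 at P30, passed the filter through P1 and gave -0.24 (SE 0.08), and *Txnrd2*, the mitochondrial one, gave 0.06 (SE 0.07, adjusted p = 0.458). The reductase *Txnrd3* and the thioredoxin-like *Nxn* were among the lowest of all lists, at -1.18 (SE 0.04) and -1.09 (SE 0.08).

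In the glutathione list 10 genes were higher, 7 lower and 4 not called. The glutathione transferases *Gsta4* and *Gstm1* rose by 1.64 (SE 0.09, adjusted p = 3.11e-11) and 1.59 (SE 0.11, adjusted p = 1.70e-09), and a dim second probe of *Gstm1* gave 0.06 (adjusted p = 0.298). *Gpx1*, the main cytosolic glutathione peroxidase, fell by 0.58 (SE 0.05, adjusted p = 3.12e-08), and *Gpx7*, a peroxidase of the endoplasmic reticulum, had the lowest value of all lists at -1.22 (SE 0.06, adjusted p = 2.47e-11). *Gclm*, a subunit of the enzyme that begins glutathione synthesis, rose by 0.19 (SE 0.04, adjusted p = 0.000773). *Gclc*, its catalytic subunit, did not pass the filter, and *Gsr* was not analysed here.

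The list around NRF2, the transcription factor of the antioxidant response, held 4 higher genes, 5 lower and 6 not called. *Nfe2l2*, which encodes NRF2, gave 0.06 (SE 0.05, adjusted p = 0.240) near the background, and *Keap1*, its inhibitor, -0.07 (SE 0.05, adjusted p = 0.204). Of its textbook targets, *Nqo1* rose by 0.13 (SE 0.05, adjusted p = 0.0392), *Hmox1* gave -0.07 (SE 0.04, adjusted p = 0.140) and *G6pdx*, which supplies NADPH, fell by 1.08 (SE 0.08, adjusted p = 2.42e-09). Of 7 genes of superoxide handling 3 were tested and all 3 were lower, beside 37.7% of all genes, among them *Ccs*, the copper chaperone of SOD1, which fell by 0.39 (SE 0.05, adjusted p = 4.24e-06), and *Sod3* did not pass the filter. Of the metallothioneins and ferritins 4 of 5 were higher, with *Mt3*, a metallothionein of the brain, at 1.41 (SE 0.08, adjusted p = 5.96e-11). The peroxisome list had 2 genes higher, 3 lower and 7 not called, that of selenoprotein synthesis 4 higher, 2 lower and 2 not called, and that of methionine sulfoxide reductases 1 higher and 2 not called.

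**Figure D5:**
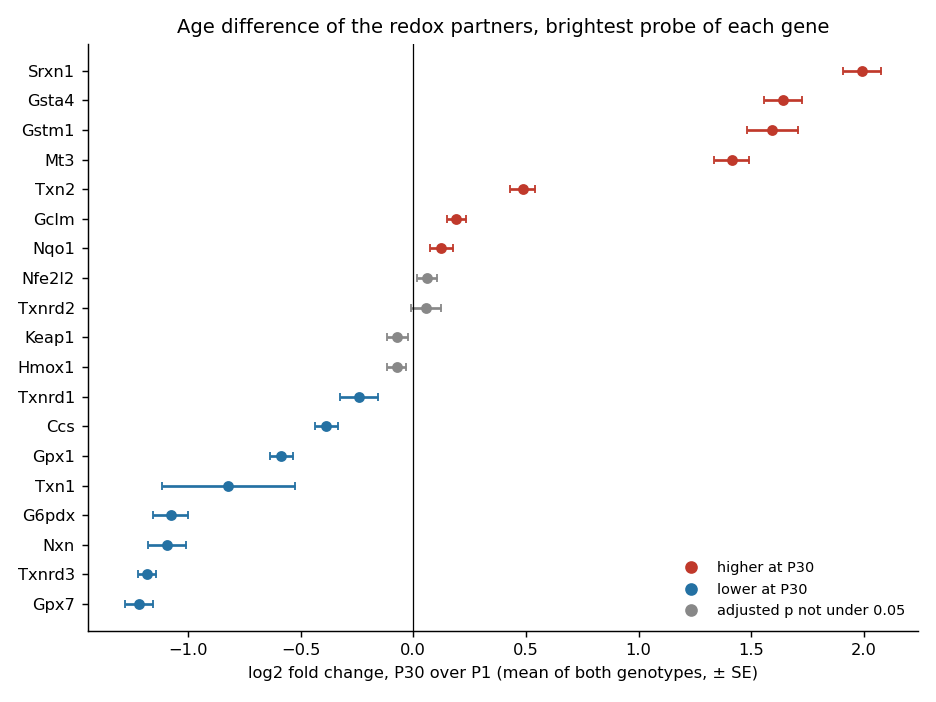
Log2 fold change of P30 over P1 with its standard error for 19 genes that reduce, repair or work beside the peroxiredoxins, by the brightest tested probe of each. Srxn1 lies at 1.99 and Gpx7 at -1.22, and Txn2 and Txn1, the mitochondrial and the cytosolic thioredoxin, lie on opposite sides of 0.

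The core of the sequence that NRF2 binds, TGACNNNGC read on either strand, was looked for in the RefSeq promoter windows of GRCm38.p6, from 250 bases before to 50 after each transcript start. It was found in 12.4% of 32851 windows. The 9 member genes that have a window have 12 windows together, and 2 of these genes had a match, *Prdx1* and *Sod1*. Of the partners only *Srxn1* was looked at, and it had a match too. The 3 stretches are shown because they belong to members or the repair enzyme that changed with age, as the strand of the gene, with the match, which runs along the opposite strand, in capitals.
Prdx1 (chr4:116685456-116685484, plus strand): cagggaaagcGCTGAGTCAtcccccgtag
Sod1 (chr16:90220696-90220724, plus strand): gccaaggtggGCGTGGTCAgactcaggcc
Srxn1 (chr2:152105542-152105570, plus strand): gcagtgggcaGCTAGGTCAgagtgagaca
The matches lie 133 bases before the start in *Prdx1*, 56 before it in *Sod1* and 28 after it in *Srxn1*. *Prdx1* and *Sod1* were lower at P30 and *Srxn1* higher, so a match was found beside both directions. The MEF2 consensus was found in 3.19% of the windows and in none of those of the 9 genes. A match or its absence describes these letters in this window only.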

How the data were processed

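The members and the gene lists were chosen with earlier results of these data known. The authors deposited, for each probe and array, the mean intensity of its beads on a linear scale without normalization between arrays, a detection p-value, a bead standard error and a bead count. The sources do not say whether local background had been subtracted, and the submitters' processing notes name lumi and limma without versions. Probes were assigned to genes through the RefSeq gene table of GRCm38.p6 by Entrez number, accession or symbol (25376 of 25697).

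Here the intensities were transformed to log2, quantile normalized over the arrays of a fit and tested with R 4.3.3 and limma 3.58.1 (lmFit and eBayes, two-sided, Benjamini-Hochberg over all probes tested). Probes detected (p under 0.05) on 4 or more arrays of a fit were tested. Age was tested in a fit of all 16 arrays with a mean per group (14777 probes). Genotype was fitted on the 8 arrays of each age (13566 probes at P1, 13413 at P30), and the members' values are given without p. A gene was counted by its brightest tested probe.

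Named were all members, *Mef2c*, 15 direct partners, the 4 highest and 4 lowest pathway genes past the threshold, and the 5 genes most correlated with *Prdx2*. The lists were the thioredoxin and glutathione systems, NRF2 regulators and targets, superoxide handling, selenoprotein synthesis, methionine sulfoxide reductases with *Park7*, metallothioneins and ferritin, and the peroxisome, with marker lists for 8 cell types. Of these the markers of microglia (8 of 9 tested higher with age, 1 not called) and endothelial cells (3 higher, 4 lower) are not discussed further. Nor are those of choroid plexus (2 higher, 5 lower) and hippocampal neurons (3 higher, 5 lower, 1 not called). Of all genes 32.6% were higher and 37.7% lower. These counts too hold genes that passed the filter through 1 age, such as *Prlr* and *Neurod6*.

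Alternatives were normexp background correction with an offset of 16, median scaling, cyclic loess, trended robust variances, a filter at 0.01 or none, the array clusters as a block, the replicate number as a block, each genotype alone, all tested probes, all 16 arrays for the genotype, and each array left out. The larger clusters alone were added after the data were seen. The steps were tested on simulated data. Bead numbers and the 4 arrays per group limit the precision.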

Additional observations from a re-analysis of the deposited data

Results flagged for a closer look

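Among 34 probes in 136 groups of 4 arrays, 5 groups held an array far from the other 3 by Dixon's ratio, the gap to the nearest array over the range of the group, where chance alone gives about 6.8. For *Txn1*, replicate 8 of *Mef2c*-het at P1 stood at 8.19, with the other 3 at 9.62 or above (ratio 0.932), and that array belongs to the smaller cluster. For the brighter *Prdx5* probe, replicate 7 of *Mef2c*-het at P30, also of the smaller cluster, stood at 12.57, with the others at 13.03 or above (ratio 0.887). For the dimmer *Gpx4* probe, replicate 3 of WT at P30 stood at 7.59, with the others at 7.47 or below (ratio 0.868). For *Gsta4*, replicate 5 of WT at P1 stood at 8.20, with the others at 8.53 or above (ratio 0.837). For *Mt3*, replicate 6 of *Mef2c*-het at P30 stood at 13.17, with the others at 13.41 or above (ratio 0.835).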

How the results depend on the processing

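No log2 fold change of a member changed its direction past the threshold under any alternative run. Of 368 alternative age values of the tested member probes 355 kept their side of the threshold and 13 lost the call, those of *Cat*, *Prdx1*, *Prdx3*, *Prdx5* (dimmer probe) and *Prdx6*. Counted with *Prdx6*, the 5 genes called higher with age became 3 with the array clusters as a block, 3 on the larger clusters alone, 2 on the WT arrays only and 3 on the *Mef2c*-het arrays only, and the 5 called lower became 2 on the *Mef2c*-het arrays only, where 8 arrays are left.

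The labels do not say whether equal replicate numbers mark paired samples. Deviations from the group means of same-numbered arrays correlated at 0.09, 0.40 and 0.82 at P1 and at 0.17, -0.52 and 0.70 at P30. For the pairs at 0.82 and 0.70 both arrays lay in the smaller cluster, and for that at -0.52 only the WT array. These values therefore cannot tell a pairing from the clusters. With the number as a random block, and counted with *Prdx6*, 5 members were higher and 5 lower, as without it. Of the pathway genes 29 were higher and 25 lower, also as without it. In this setting 69.6% of all genes were called. The dimmest *Prdx2* probe gave -0.42 at P1 and 0.54 at P30 with the number as a fixed block.

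Over the leave-one-out fits its genotype value ran from -0.64 to -0.32 at P1 and from 0.25 to 0.56 at P30, and the difference between the ages from 0.73 to 1.06. Quantile normalization, normexp, median scaling and cyclic loess moved the median age change of all genes to between -0.05 and 0.00. The signals of *Prdx6* lie at the detection limit of these arrays, which leaves its changes without a usable size.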
